A study of Homo sapiens with 8 samples.

Results

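The comparison described here set 2 libraries of U87MG cells exposed to enzalutamide for 4 h against 2 libraries of the same line left untreated. These are 4 of the 8 RNA-seq libraries of the study, and the remaining 4 were taken after 24 and 48 h of the drug, with 2 libraries each. U87MG is an established human glioblastoma line, and enzalutamide is an antiandrogen used against prostate cancer. Per the labels, the cells grew in DMEM with serum, and total RNA was taken. The members of the comparison are the genes with enough counts, which were 14448 of the 23368 genes listed. They were described with gene lists for transcription factors, metal and oxidative stress, growth signalling and the cell cycle. The labels give neither a dose nor a vehicle, no time for the untreated cells, and no word on whether a group's pair of libraries stands for 2 cultures. The p-values therefore rest on the spread within such pairs, part of which may be technical, and drug and handling cannot be told apart. The extraction text mentions a differentiation step that the growth and treatment texts do not.

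Early responses to a drug are often led by genes for short-lived regulators, among them AP-1 and EGR factors and feedback inhibitors of kinase signalling, whose transcripts appear and decay quickly. Free zinc and related metals are sensed by the factor MTF1, which binds metal response elements and switches on metallothioneins and the zinc exporter SLC30A1, whereas unfolded proteins act through HSF1 and heat shock elements, and electrophiles act through NRF2. In the cell cycle, E2F factors drive genes of DNA synthesis, and the MuvB complex with B-MYB and FOXM1 drives genes of mitosis through CHR elements.

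Library totals were 33025426 and 32298781 counts in the controls and 24620833 and 32767660 counts at 4 h. Libraries of a group correlated at Pearson's r of 0.995 (control) and 0.994 (4 h) across genes, which are not independent replicates, and the pairs differed beyond sampling noise (chi-square per degree of freedom 7.1 and 15). Levels are CPM, the count scaled to the TMM-adjusted library size, and a gene was called at an adjusted p under 0.05 in edgeR's quasi-likelihood test. Of the glioma line markers, VIM, which encodes vimentin, stood at 7917 and 8066 CPM in the controls and was called lower at 4 h, at 5748 and 5609 CPM (log2 change -0.49, SE 0.05), SOX2 had at most 1 count in any library, and CDKN2B had no count in any. The summed level of neuronal markers was 165 to 169 CPM in the controls and 140 to 143 CPM at 4 h, and TUBB3 made up 69.6% of it. Sums of astrocyte markers were 364 to 376 against 395 to 400 CPM, with AQP4 at 0 and 93.5% of the sum from GJA1. Those of immune markers were 882 to 950 against 817 to 852 CPM, with AIF1 and CD3E at 0. CD68 made up 72.6% of the immune sum, and 2 of the 8 immune markers had enough counts to be tested. Oligodendrocyte markers stood at 97.7 to 102 against 86.4 to 91.5 CPM, with MOG and OLIG1 at 0. CNP made up 95.3% of the oligodendrocyte sum, so most of each sum came from 1 gene. The part of these shifts in the results was not tested. In bulk RNA, fewer cells of a kind and less RNA per cell cannot be told apart.

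After 4 h, 15% of tested genes were called higher and 13.6% lower, or 28.6% in either direction. Most of these changes were small: 1313 of the higher and 1220 of the lower genes moved by less than 1.5-fold, and the median absolute log2 change of called genes was 0.49. The median log2 change of all tested genes was -0.004. Leaving out 1 library cut the counts by over 1.5 times, to 1207 higher and 1180 lower without control replicate 1, 1213 and 1046 without control replicate 2, 1241 and 986 without 4 h replicate 1, and 1286 and 1143 without 4 h replicate 2. Calls were fewer at low levels, with 7.2% higher and 5.29% lower in the lowest of 5 equal groups of genes by level against 19.8% and 15.2% in the highest. Both 4 h libraries lay above both controls for 34.1% of tested genes and below both for 34.5%, so a gap between the groups without a call is common here. The 4 themes differed in direction: metal and oxidative stress genes were called higher in 87 and lower in 27 of 248 cases, cell cycle genes in 10 and 179 of 270. Transcription factor genes went both ways, with 67 higher and 47 lower of 231, as did growth signalling genes, with 70 and 55 of 279.

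**Figure D1:**
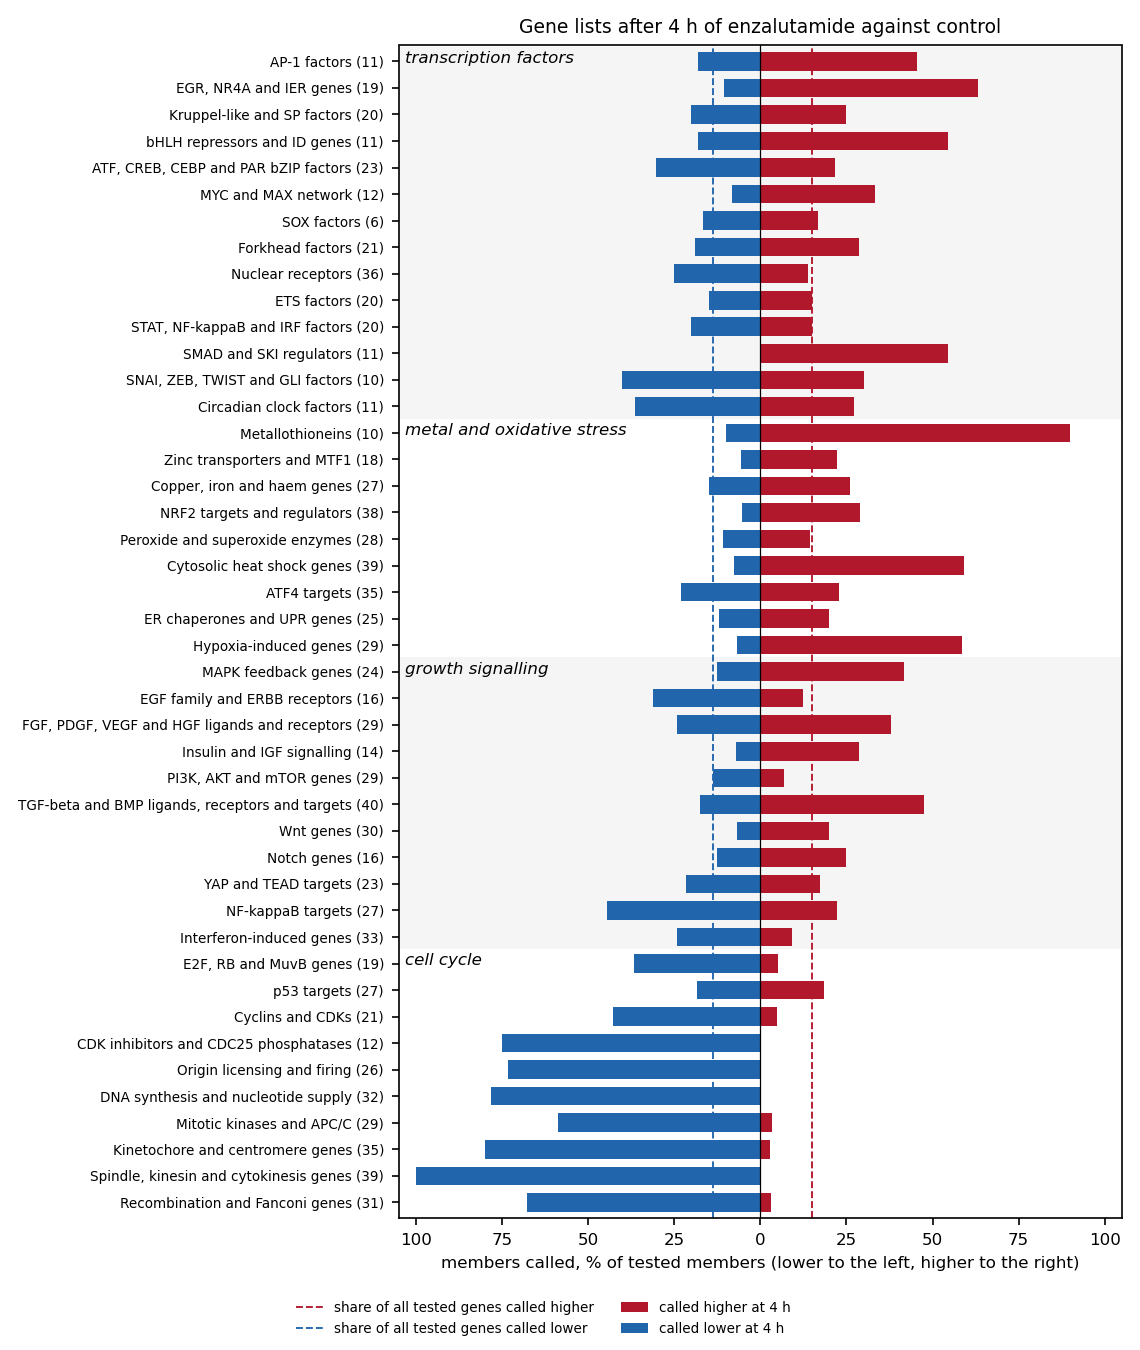
Share of the tested members of each gene list that was called higher (right, red) or lower (left, blue) after 4 h of enzalutamide than in control, with the number of tested members in brackets. Dashed lines mark the shares over all tested genes, 15% higher and 13.6% lower. Spindle genes were all called lower, and 9 of 10 metallothionein genes were called higher (7 of 8 with at least 5 CPM in 2 libraries).

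Among transcription factor genes with a mean level of at least 2 in log2 CPM, the largest rise was that of FOSB and the largest fall that of E2F8. FOSB, a partner of JUN in AP-1, stood at 1.84 and 1.55 CPM in the controls and at 12.5 and 14.8 CPM at 4 h (log2 change 3.01, SE 0.22, adjusted p = 4.7e-06). At 24 h it had returned to 2.31 and 1.88 CPM. SOX4, an HMG-box factor of progenitor cells, went from 2.18 and 2.65 to 8.24 and 9.82 CPM (log2 change 1.91, SE 0.19, adjusted p = 3.9e-05). BHLHE40, a repressor that acts in the clock and in hypoxia, went from 124 and 130 to 424 and 440 CPM (log2 change 1.77, SE 0.08, adjusted p = 1.4e-07). CSRNP1, a nuclear protein of the immediate early class, was at 13.5 and 11.8 CPM in the controls and at 41.8 and 42.3 CPM at 4 h (log2 change 1.74, SE 0.11). The rule that chose the genes named here required groups without overlap, so the gap between them is no finding.

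VDR, the receptor for vitamin D, rose from 23.9 and 24.6 to 76.4 and 78.7 CPM (log2 change 1.68, SE 0.08, adjusted p = 1.9e-07). The remaining rises of the top 12 took in the SMAD corepressors SKIL (1.68) and SKI (1.07) and the inhibitory SMADs SMAD7 (1.19) and SMAD6 (1.09). SMAD7 was at 10.5 and 14 CPM in the controls and at 27.4 and 28.5 CPM at 4 h, and SMAD6 at 9.18 and 12.1 against 23.5 and 21.9 CPM. KLF5 and KLF10, both zinc finger factors, rose by 1.19 and 1.14 on the log2 scale, and the forkhead gene FOXC1 by 1.00. KLF5 then stayed up, with a mean of 15.4 CPM at 24 h against 17.4 CPM at 4 h, a difference that was not called (adjusted p = 0.247).

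Among the falls, E2F8, an atypical E2F that represses transcription, fell from 6.71 and 8.63 to 2.72 and 2.5 CPM (log2 change -1.56, SE 0.18, adjusted p = 0.000105), and MYBL1 from 12.9 and 14.8 to 4.64 and 5.65 CPM (-1.42, SE 0.13). TWIST1, a mesenchymal factor of the bHLH family, fell from 14.5 and 15.1 to 6.24 and 5.09 CPM (-1.40, SE 0.15). ETV1, an ETS factor of the PEA3 group, fell from 151 and 156 to 69.4 and 69.6 CPM and was back at 166 and 162 CPM after 24 h. KLF9 (-1.22), the nuclear corepressor NR0B1 (-1.14), the clock gene PER3 (-1.13), FOXM1 (-1.08), IRF2 (-0.90) and the retinoic acid receptor RARB (-0.89) also stood among the 12 largest falls.

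**Figure D2:**
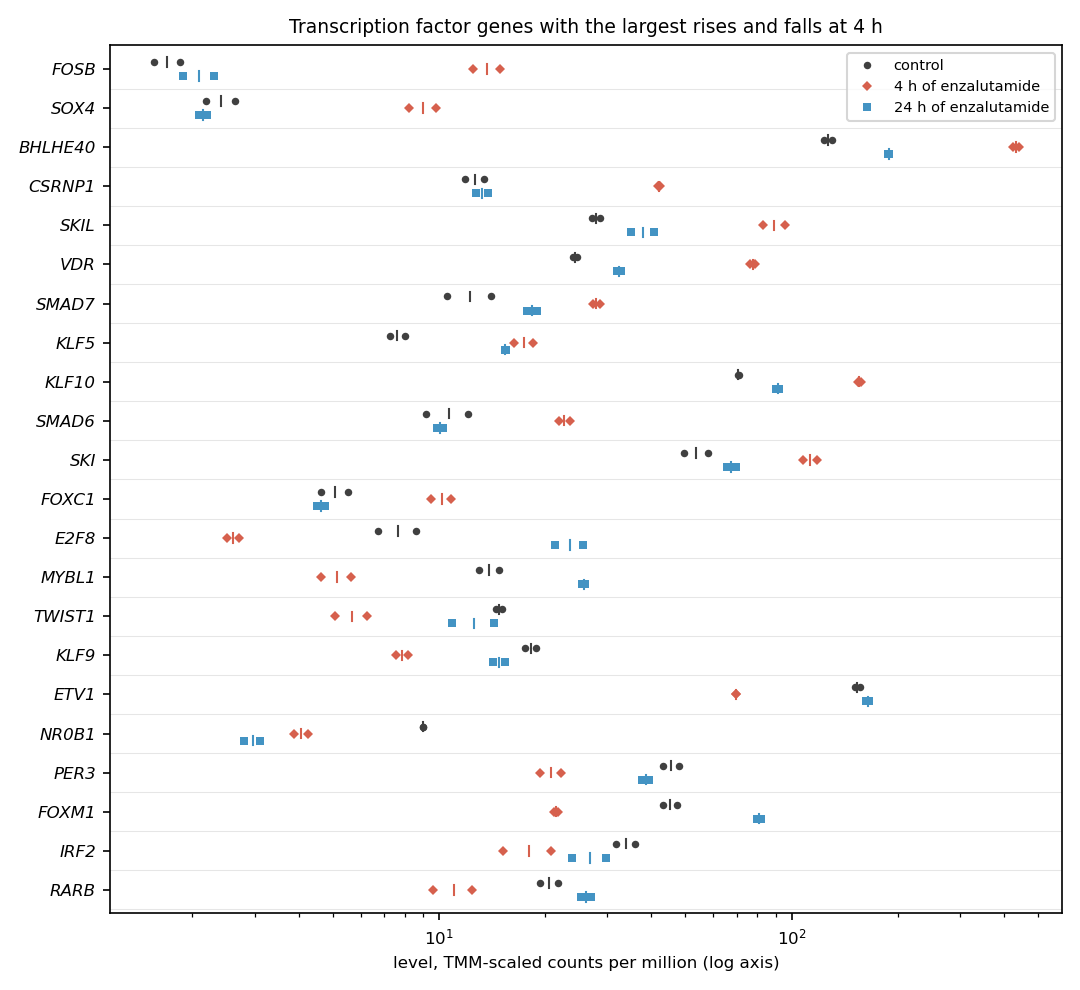
Levels of the 12 transcription factor genes with the largest rises (top, FOSB to FOXC1) and 10 of those with the largest falls (bottom, E2F8 to RARB) in each library of control, 4 h and 24 h, in TMM-scaled CPM on a log axis. Points are libraries and short bars are means of 2; FOSB moved from 1.84 and 1.55 CPM to 12.5 and 14.8 CPM, and E2F8 from 6.71 and 8.63 to 2.72 and 2.5 CPM.

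Members of the AP-1 family did not move as 1 group: 5 of 11 were called higher and 2 lower, with a median log2 change of 0.10. JUN rose from 220 and 229 to 358 and 338 CPM (0.63, SE 0.08, adjusted p = 0.00021), and ATF3, a stress-induced partner, from 26.6 and 27.6 to 47.0 and 45.5 CPM (0.77, SE 0.07). FOS stayed low, at 1.39 and 1.55 against 2.32 and 3.27 CPM, JUND was at 31.6 and 36.6 against 58.2 and 42.6 CPM, FOSL2 at 164 and 168 against 134 and 146 CPM, and JDP2 at 13.1 and 11 against 8.12 and 8.71 CPM. The calls of these last 4 were lost in several fits that left out 1 library, with the direction kept. For FOS the log2 change was 0.86 without control replicate 1 (adjusted p = 0.11), 1.02 without control replicate 2 (0.0702) and 0.66 without 4 h replicate 2 (0.183). For JUND it was 0.45 without control replicate 1 (adjusted p = 0.0907) and 0.32 without 4 h replicate 1 (0.0992). For FOSL2 it was -0.27 and -0.23 without control replicate 1 and 2 (adjusted p = 0.0642 and 0.107) and -0.19 without 4 h replicate 1 (0.175). For JDP2 it was -0.39 without control replicate 1 (adjusted p = 0.18), -0.47 without 4 h replicate 1 (0.132) and -0.58 without 4 h replicate 2 (0.0862). The list then had 3 higher and none lower (without control replicate 1), 4 and 1 (control replicate 2), 4 and none (4 h replicate 1), and 4 and 1 (4 h replicate 2). FOSL1, at 515 and 502 against 532 and 555 CPM, and JUNB, at 39.7 and 40.4 against 38.6 and 34.4 CPM, were not called, nor were BATF2 and BATF3.

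In the list of EGR, NR4A and IER genes, 12 of 19 were called higher and 2 lower, with a median log2 change of 0.59. ARC, which encodes a cytoskeletal protein known from neurons, rose from 17.3 and 19 to 38.5 and 34.1 CPM (1.00, SE 0.09), and EGR2, a zinc finger factor, from 11.4 and 12.1 to 21.3 and 25.5 CPM (0.99, SE 0.13). IER3, an early gene of survival signalling, rose from 168 and 158 to 295 and 354 CPM (0.99, SE 0.10). NR4A2, an orphan nuclear receptor, went the other way, from 5.35 and 5.70 to 2.84 and 1.76 CPM (-1.29, SE 0.23, adjusted p = 0.0018), and was still at 2.68 and 2.67 CPM after 24 h. The mRNA decay factor ZFP36L1 fell as well (-0.45, SE 0.07).

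In the remaining families, bHLH repressors and ID genes were called higher in 6 and lower in 2 of 11 cases (1 lower without any 1 of the libraries compared), with ID1 at 86.3 and 98.9 against 174 and 154 CPM. BHLHE41, the close relative of BHLHE40, fell from 102 and 103 to 64.1 and 65.6 CPM (-0.65, SE 0.09) while BHLHE40 rose. Of 11 SMAD and SKI genes 6 were called higher (54.5%, against 15% of all tested genes) and none lower. Both 4 h libraries lay above both controls for 8 of them, which also held for 34.1% of all tested genes. MYC, a driver of growth genes, rose from 75.0 and 67.7 to 105 and 97.1 CPM (0.50, SE 0.07) and its partner MAX from 38 and 37.4 to 58.0 and 57.1 CPM (0.61, SE 0.08), whereas the MAX-binding repressor MXD3 fell from 5.86 and 6.18 to 2.76 and 1.79 CPM (-1.43, SE 0.22). SNAI1, which represses epithelial genes, rose from 0.68 and 0.633 to 2.6 and 3.06 CPM (2.11, SE 0.31), and SNAI2 by 0.57 (SE 0.07). Within the hedgehog effectors, GLI2 rose by 0.97 (SE 0.09) and GLI3 fell by 0.59 on the log2 scale (SE 0.11). GLI1 was called lower as well, a call that was lost without 4 h replicate 2, where its log2 change was -1.25.

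Families with calls in both directions were the ETS factors (3 higher, 3 lower of 20, and 1 or 2 and 2 or 3 without 1 of the libraries compared), the Kruppel-like and SP factors (5 and 4 of 20, with 3 or 4 higher without 1 of the libraries compared), the STAT, NF-kappaB and IRF factors (3 and 4 of 20, and 1 or 2 and 2) and the ATF, CREB and CEBP group (5 and 7 of 23, and at most 4 and 4 without 1 of the libraries compared). Nuclear receptors had 5 higher and 9 lower of 36, or 1 to 4 and 5 to 8 without 1 of the libraries compared, among the latter NR1D1, a clock repressor (-0.63, SE 0.08), and NR2F1 (-0.76, SE 0.11). Of all tested genes, 15% were called higher and 13.6% lower. The counts of ETS factors and of STAT, NF-kappaB and IRF factors were thus close to the background. So was the number of nuclear receptors called higher. Clock genes were split: PER2 rose from 10.6 and 11 to 20.8 and 17.2 CPM (0.81, SE 0.12). PER1 fell from 23.0 and 25.8 to 15.4 and 16.2 CPM (-0.63, SE 0.10). Forkhead genes were called higher in 6 and lower in 4 of 21 cases, and in 3 or 4 and 2 or 3 without 1 of the libraries compared, among them FOXD1 (0.66, SE 0.09). NFKB1, which encodes the p105 precursor, fell from 91.6 and 90.8 to 61.6 and 62.2 CPM (-0.56, SE 0.08).

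Metallothioneins are small cysteine-rich proteins that bind zinc, copper and cadmium. Of 10 tested metallothionein genes 9 were called higher and 1 lower, with a median log2 change of 2.94. With at least 5 CPM required in 2 libraries, 7 of 8 were called higher and 1 lower. MT1E went from 101 and 91.8 CPM to 693 and 597 CPM (2.75, SE 0.14, adjusted p = 3.2e-07) and was back at 73.8 and 92.5 CPM after 24 h. MT2A, a member expressed in most tissues, was at 1037 and 957 CPM in the controls and at 1730 and 1550 CPM at 4 h (0.72, SE 0.09, adjusted p = 0.00025), and MT1L at 39.3 and 34.5 against 70.7 and 64.8 CPM (0.88, SE 0.09). MT1G, at 0.368 and 0.92 CPM in the controls and 104 and 80.7 CPM at 4 h, kept a mean of 40.0 CPM after 24 h, and MT1F one of 34.6 CPM, so both were still far above the controls while MT1E was not. MT1H and MT1JP, a pseudogene, were at 1.16 CPM or lower in all 4 libraries compared. MT1JP averaged 0.0856 CPM in the controls, 0.455 CPM at 4 h, 0.0131 CPM at 24 h and 0.171 CPM at 48 h. It thus had enough counts to be tested only through the 4 h libraries, so its direction was set by the filter. The call of MT1JP was lost without control replicate 1 (adjusted p = 0.0696), control replicate 2 (0.0693) or 4 h replicate 2 (0.0645), which left 8 called higher, and DESeq2 gave it no adjusted p. The sequences of these genes are so alike that reads may be credited to another member, which makes each single value uncertain. MT3, the form known from brain, was the exception and fell from 3.57 and 2.27 to 1.00 and 0.735 CPM (-1.77, SE 0.31, adjusted p = 0.0015), then stood at 6.96 and 6.52 CPM after 24 h.

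Zinc transporters other than SLC30A1 had smaller changes. Of 18 tested genes of zinc transport, SLC30A1 and MTF1 included, 4 were called higher, SLC30A1 among them, and 1 lower. These shares were 22.2% and 5.56%, against 15% and 13.6% of all tested genes. Without control replicate 1 it was 2 higher, without each of the other 3 libraries compared 3, and the lower call was lost in all 4 of these fits, under DESeq2 and with thinned counts. Their median log2 change of 0.05 turned to -0.02 with library totals as the only scaling. SLC30A1, the plasma membrane exporter, was at 13.7 and 13.9 CPM in the controls, at 147 and 123 CPM at 4 h and at 12.7 and 16.5 CPM after 24 h. SLC30A7, which loads zinc into the Golgi, rose from 56.6 and 59.9 to 88.1 and 83.7 CPM (0.56, SE 0.09, adjusted p = 0.00082).

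The 250 bases before the start sites of MT1X and SLC30A1 are shown because both genes rose early and are textbook targets of MTF1. They are RefSeq windows on GRCh38.p14, 5′ to 3′ on the strand of the gene, at chr16:56682220-56682469 (plus strand) and chr1:211579162-211579411 (minus strand). Capitals mark matches on either strand to the metal response element core, searched as TGCACNC or TGCGCNC. MT1X holds 4 matches, which begin 150, 122, 78 and 53 bases before the start, and SLC30A1 holds 1, at 49 bases. Of all 27305 genes with a window in the table, 28.5% hold at least 1 match and 7.84% at least 2 in such a window, and 39.4% of tested genes with a window hold at least 1, so a single match is common. A window was found for 3 of the 10 metallothionein genes, and MT1H and MT2A held 8 and 7 matches.
MT1X: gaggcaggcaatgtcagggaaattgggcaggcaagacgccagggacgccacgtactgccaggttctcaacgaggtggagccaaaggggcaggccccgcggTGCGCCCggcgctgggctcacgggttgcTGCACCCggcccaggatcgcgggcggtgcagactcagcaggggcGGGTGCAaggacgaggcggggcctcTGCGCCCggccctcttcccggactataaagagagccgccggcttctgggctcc
SLC30A1: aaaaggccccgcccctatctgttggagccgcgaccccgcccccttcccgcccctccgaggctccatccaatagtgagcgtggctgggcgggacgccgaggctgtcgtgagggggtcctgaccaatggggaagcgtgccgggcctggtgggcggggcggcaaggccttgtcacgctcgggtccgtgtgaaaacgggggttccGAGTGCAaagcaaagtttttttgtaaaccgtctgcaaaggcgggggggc

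Copper, iron and haem genes were called higher in 7 and lower in 4 of 27 cases, with 4 higher and 1 to 3 lower without any 1 of the libraries compared. TFRC, the transferrin receptor that brings iron into the cell, rose from 519 and 537 to 661 and 644 CPM (0.31, SE 0.05, adjusted p = 0.0018), and SLC31A1, the copper importer, from 99.4 and 96.1 to 122 and 121 CPM (0.31, SE 0.06). ACO1, the iron-sensing aconitase, fell from 227 and 236 to 180 and 179 CPM (-0.36, SE 0.06).

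Among NRF2 targets and regulators 11 of 38 were called higher and 2 lower, with a median log2 change of 0.09. HMOX1, which encodes the haem-degrading oxygenase and also answers to metals and haem, led them, at 387 and 372 CPM in the controls, 3194 and 2914 CPM at 4 h and 489 and 416 CPM after 24 h. MAFK, a small MAF partner of NRF2, rose from 36.1 and 36.6 to 87.9 and 86.3 CPM (1.26, SE 0.10, adjusted p = 6.9e-06). AKR1B10, an aldo-keto reductase often used as an NRF2 marker, went the other way, from 8.05 and 10.3 to 3.12 and 3.97 CPM (-1.36, SE 0.19), as did the efflux pump ABCC2 (-0.73, SE 0.11). The list thus held a few large rises and many members that were not called.

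Enzymes that remove peroxide and superoxide had 4 higher and 3 lower of 28, with 1 lower without control replicate 2, 4 h replicate 1 or 4 h replicate 2, and 6 lower with library totals as the only scaling. With all libraries the shares were 14.3% higher and 10.7% lower, close to the 15% and 13.6% of all tested genes. TXNIP, an inhibitor of thioredoxin that also restrains glucose uptake, was the exception in size and rose from 4.36 and 5.72 to 19.8 and 25.9 CPM (2.18, SE 0.16, adjusted p = 6.2e-06), with a mean of 16.0 CPM still at 24 h. Glutaredoxin GLRX rose from 142 and 134 to 191 and 181 CPM (0.43, SE 0.08), and catalase, CAT, fell from 76.6 and 78.9 to 57.3 and 58.4 CPM (-0.43, SE 0.07).

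Cytosolic heat shock genes were called higher in 23 and lower in 3 of 39 cases, with a median log2 change of 0.31. Without 1 library the number higher was 15 (either control), 17 (4 h replicate 1) and 14 (4 h replicate 2). HSPA6, a strictly inducible HSP70, went from 1.19 and 1.24 to 9.2 and 9.65 CPM (2.95, SE 0.18, adjusted p = 1.3e-06). HSPA1A was at 37.0 and 39.0 CPM in the controls and 126 and 145 CPM at 4 h, and HSPA1B at 60.8 and 61.4 against 202 and 233 CPM, and reads of this near-identical pair cannot be told apart with certainty. At 24 h HSPA1A, at 38.1 and 37.9 CPM, lay within the range of the controls. The HSP110 gene HSPH1 went from 99.4 and 110 to 216 and 224 CPM. SERPINH1, the collagen chaperone of the ER, which shares HSF1 control, fell from 239 and 242 to 170 and 173 CPM (-0.49, SE 0.07), and DNAJB5 fell by 0.52 on the log2 scale (SE 0.08).

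Heat shock elements were searched as GAANNTTC, which reads the same on both strands. In the 250 bases before a start, 18 of the 34 heat shock genes with a window held a match (52.9%), 13 of the 21 called higher and 4 of the 10 not called, against 7.05% of all genes in the table. HSPA6 is printed as the member with the largest rise among those named, while the list's largest log2 change, of a member not named, was 4.57. HSPA6 holds 2 matches, which begin 180 and 69 bases before the start, at chr1:161524290-161524539 (GRCh38.p14, plus strand, capitals mark the matches).
HSPA6: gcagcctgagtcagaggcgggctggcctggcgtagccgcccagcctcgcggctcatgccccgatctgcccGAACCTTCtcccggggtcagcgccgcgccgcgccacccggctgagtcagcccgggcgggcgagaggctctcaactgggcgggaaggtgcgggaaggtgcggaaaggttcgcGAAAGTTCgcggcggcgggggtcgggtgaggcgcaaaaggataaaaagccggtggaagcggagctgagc

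The other stress lists differed in how far they stood from the background of 15% called higher and 13.6% lower. For hypoxia-induced genes the shares were 58.6% and 6.9%. Those for ER chaperones and the unfolded protein response, 20% and 12%, were close to the background. ATF4 targets stood at 22.9% each way, with a median log2 change of 0.02. Targets of ATF4, the factor of the integrated stress response, were called higher in 8 and lower in 8 of 35 cases, counts that moved to 5 to 10 and 3 to 9 without 1 of the libraries compared. SLC3A2, a subunit of amino acid transporters, rose from 280 and 243 to 493 and 491 CPM (0.91, SE 0.08), and PPP1R15A, which reverses the block on translation, by 0.68 (SE 0.08), whereas the serine synthesis gene PHGDH (-0.47, SE 0.09) and the alanyl-tRNA synthetase AARS (-0.38, SE 0.06) fell. Genes of the ER unfolded protein response had 5 higher and 3 lower of 25 (3 and at most 1 without 1 library), among them the co-chaperone DNAJB9, at 25.1 and 24 against 38.6 and 37.8 CPM. Hypoxia-induced genes were called higher in 17 and lower in 2 of 29 cases. Fewer were called higher without any 1 of the libraries compared, and fewer lower without control replicate 2 or either 4 h library. The list median then stood at 0.26 to 0.31, against 0.26 with all libraries. PFKFB4, a regulator of glycolysis, rose from 44.4 and 42 to 72.1 and 74.1 CPM (0.76, SE 0.07), while LOX, a collagen crosslinker, fell from 422 and 480 to 288 and 294 CPM (-0.63, SE 0.07).

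**Figure D3:**
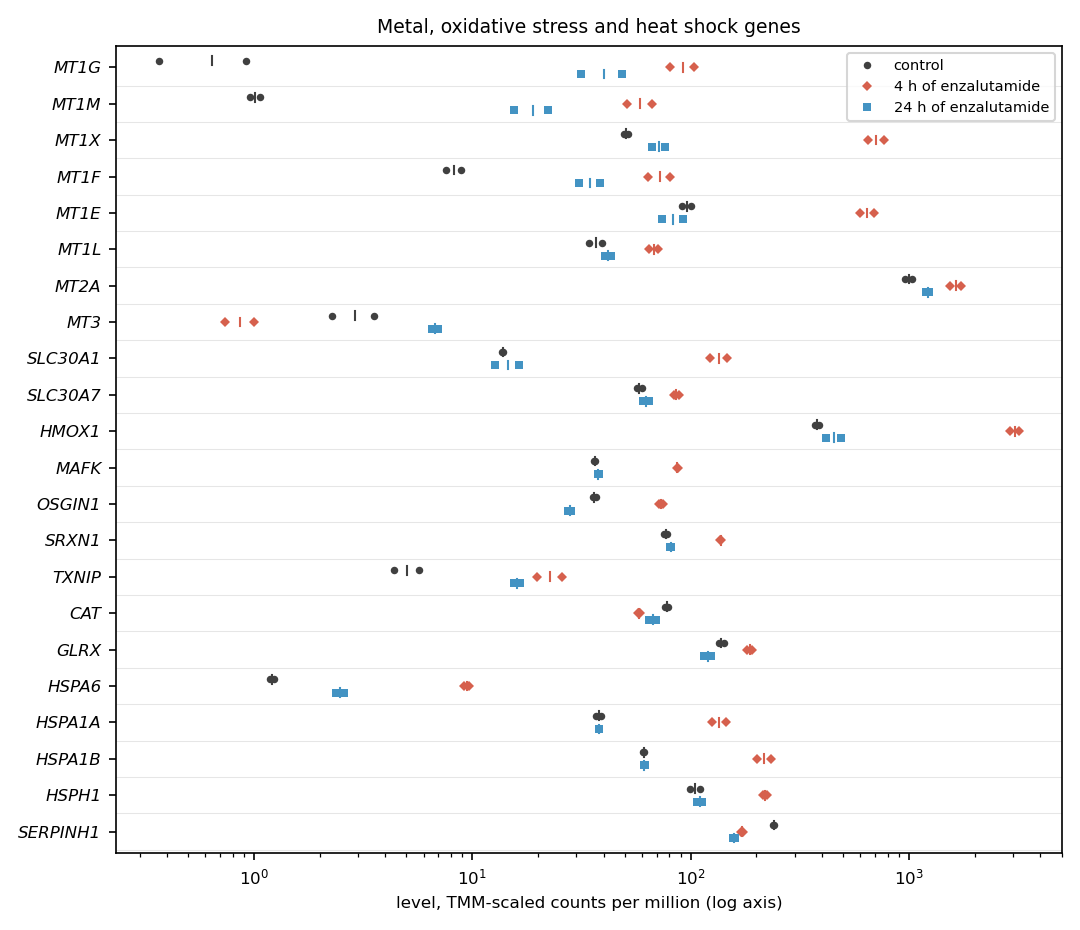
Levels of metallothionein, zinc transport, oxidative stress and heat shock genes in each library of control, 4 h and 24 h, in TMM-scaled CPM on a log axis. Points are libraries and short bars are means of 2. MT1E rose from 101 and 91.8 to 693 and 597 CPM and HSPA6 from 1.19 and 1.24 to 9.2 and 9.65 CPM, while MT3, CAT and SERPINH1 were lower at 4 h.

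Growth factors and cytokines split into genes that rose and genes that fell. IL11, a cytokine of the IL-6 family, went from 76.8 and 66.3 to 605 and 539 CPM (log2 change 3.00, SE 0.11, adjusted p = 3.1e-08), and LIF, of the same family, from 499 and 443 to 1782 and 1774 CPM (1.92, SE 0.08). At 24 h IL11 stood at 78.3 and 62.5 CPM, on both sides of the controls, and LIF at 764 and 700 CPM, above them. For both genes the 4 h libraries lay far above the controls.

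In the EGF family, 2 of 16 genes were called higher and 5 lower, and 1 and 1 to 3 without 1 of the libraries compared. HBEGF, a ligand shed from the membrane, rose from 40.1 and 36.8 to 80.4 and 75.4 CPM (1.02, SE 0.09), and epiregulin, EREG, fell from 916 and 924 to 654 and 607 CPM (-0.55, SE 0.06). The list of FGF, PDGF, VEGF and HGF ligands and receptors had 11 higher and 7 lower of 29, or 6 higher without 4 h replicate 1 and 7 without control replicate 1. VEGFA rose from 550 and 504 to 1614 and 1563 CPM (1.59, SE 0.07), the ephrin EFNB2 from 77.4 and 79.2 to 297 and 276 CPM (1.87, SE 0.18) and FGF2 from 55.3 and 54 to 86.1 and 85.7 CPM (0.65, SE 0.07). BDNF, a neurotrophin, fell from 54.5 and 52.1 to 20.6 and 21.1 CPM (-1.35, SE 0.09, adjusted p = 1.9e-06), HGF from 81.3 and 92.8 to 40.8 and 41.8 CPM (-1.08, SE 0.08) and PDGFC from 68.0 and 63.7 to 45.4 and 41.6 CPM (-0.60, SE 0.08). The lymphatic ligand VEGFC fell by 0.53 on the log2 scale (SE 0.08), opposite in direction to VEGFA.

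Of 14 insulin and IGF signalling genes 4 were called higher, 3 of them binding proteins that hold IGFs outside the cell. IGFBP4 rose from 358 and 327 to 871 and 832 CPM (1.31, SE 0.09), IGFBP1 from 14.4 and 11 to 34.8 and 35.9 CPM (1.48, SE 0.12) and IGFBP3 from 272 and 288 to 361 and 362 CPM (0.37, SE 0.06). Only IGFBP3 of these 3 was called higher again at 24 h than at 4 h, at 749 and 737 CPM. Of all tested genes, 15% were called higher and 13.6% lower at 4 h. The PI3K, AKT and mTOR list stood at 6.9% and 13.8%, so its share called lower was close to the background. Genes of PI3K, AKT and mTOR had 2 higher and 4 lower of 29, or 0 to 2 and 1 or 2 without 1 of the libraries compared and 2 and 7 with library totals as the only scaling, with the regulatory subunit PIK3R2 at 91.3 and 92.8 against 65.6 and 68.5 CPM.

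Feedback inhibitors of MAPK signalling were called higher in 10 and lower in 3 of 24 cases (1 or 2 lower without 1 of the libraries compared), with a median log2 change of 0.26. The phosphatases DUSP5 (0.78, SE 0.08) and DUSP10 (0.74, SE 0.07) rose, as did SPRED2, which restrains RAF, from 88.3 and 88.4 to 155 and 143 CPM (0.75, SE 0.07). RASA1, a GTPase activator of RAS, fell from 118 and 126 to 85.4 and 79.0 CPM (-0.57, SE 0.08). DUSP5 stayed up at 24 h, at 71.2 and 73.5 CPM against 49.7 and 46.7 CPM in the controls.

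Genes of TGF-beta and BMP signalling, ligands and receptors included, were called higher in 19 and lower in 7 of 40 cases (3 or 4 lower without 1 of the libraries compared), with a median log2 change of 0.28. PMEPA1, which limits SMAD signalling, went from 32.5 and 37.6 to 222 and 201 CPM. The BMP antagonist GREM1 rose from 348 and 361 to 596 and 615 CPM (0.77, SE 0.06). The receptor TGFBR2 fell from 136 and 141 to 70.7 and 75.4 CPM (-0.92, SE 0.08), so a receptor was lower where several target genes were higher.

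Notch genes had 4 higher and 2 lower of 16, and 1 lower without control replicate 2 or either 4 h library. The ligand JAG1 rose from 15.7 and 16.8 to 38.1 and 32.8 CPM (1.12, SE 0.16), the receptor NOTCH1 from 42.2 and 46.5 to 81.6 and 69.5 CPM (0.77, SE 0.13) and the target HES1 from 1.93 and 2.36 to 4.12 and 5.94 CPM (1.25, SE 0.21), while the coactivator MAML2 fell from 16.6 and 18.8 to 7.48 and 8.35 CPM (-1.15, SE 0.12). Wnt genes had 6 higher and 2 lower of 30, and their median of 0.05 turned to -0.01 with library totals as the only scaling. Among receptors, FZD7 rose from 10.7 and 12.7 to 24.6 and 22.2 CPM (1.00, SE 0.14) and FZD2 fell from 13.8 and 13.4 to 6.4 and 5.15 CPM (-1.24, SE 0.14). Targets of YAP and TEAD were close to the background in both directions (4 higher, 5 lower of 23, and 2 and 0 to 3 without 1 library), while F3, tissue factor, rose from 95.6 and 97.2 to 272 and 246 CPM (1.43, SE 0.09).

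Targets of NF-kappaB were called higher in 6 and lower in 12 of 27 cases, with fewer lower without any 1 of the libraries compared. PTX3, a pentraxin of innate defence, fell from 160 and 165 to 44.4 and 44.1 CPM, the chemokine gene CXCL2 from 156 and 135 to 68.8 and 65.2 CPM (-1.12, SE 0.08), TNFAIP2 from 39.7 and 39.7 to 19.6 and 21.6 CPM (-0.94, SE 0.09) and the ubiquitin ligase gene BIRC3 from 39.6 and 44.1 to 21.3 and 21.2 CPM (-0.98, SE 0.10). Inflammatory genes on the same list rose, namely IL1B from 2599 and 2202 to 4357 and 4740 CPM (0.92, SE 0.13), PTGS2 from 345 and 313 to 575 and 517 CPM (0.73, SE 0.08) and the chemokine gene CCL20 (1.16, SE 0.18). Interferon-induced genes had 3 higher and 8 lower of 33, or 0 and 11 with library totals as the only scaling, and 0 or 1 and 5 or 6 without 1 of the libraries compared. IFI44 fell from 30.0 and 31.7 to 12.8 and 13.5 CPM and GBP2 from 21.9 and 20.2 to 12.6 and 14.6 CPM (-0.63, SE 0.11).

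**Figure D4:**
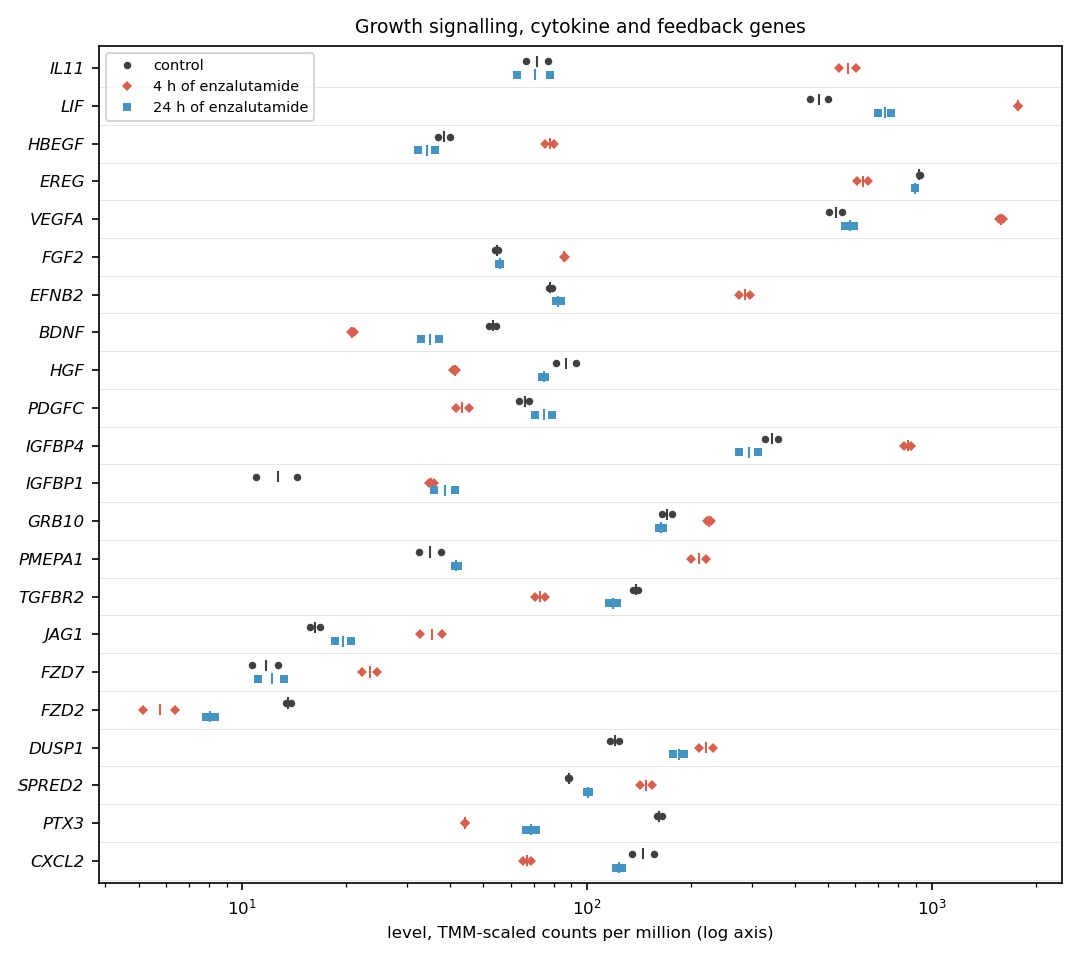
Levels of cytokine, growth factor, receptor and feedback genes in each library of control, 4 h and 24 h, in TMM-scaled CPM on a log axis. Points are libraries and short bars are means of 2. IL11 and LIF were higher at 4 h than in both controls, and BDNF (54.5 and 52.1 against 20.6 and 21.1 CPM), HGF, TGFBR2, FZD2, PTX3 and CXCL2 were lower.

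Of the 4 themes, cell cycle genes had the most uniform direction. Of 270 tested genes in 10 lists, p53 targets included, 66.3% were called lower against 13.6% of all tested genes, 36 of them by at least 2-fold, and 3.70% were called higher, none by 2-fold. In the list of cyclins and CDKs, 9 of 21 were called lower and 1 higher. The mitotic cyclin CCNB1 fell from 114 and 126 to 54.8 and 63.0 CPM (-1.02, SE 0.09, adjusted p = 1.3e-05), CCNA2, the cyclin of S and G2 phase, from 42.3 and 47.9 to 23.6 and 22.4 CPM (-0.98, SE 0.08) and the kinase CDK1 from 51.5 and 57.9 to 31.6 and 29.1 CPM (-0.85, SE 0.09). CCND1, the G1 cyclin that growth signals induce, was the gene called higher and rose from 1164 and 1188 to 1748 and 1693 CPM (0.55, SE 0.05, adjusted p = 3e-05).

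The E2F, RB and MuvB list had 7 lower and 1 higher of 19. E2F2 fell from 4.79 and 4.66 to 0.92 and 1.5 CPM, E2F1 from 79.5 and 76.7 to 61.7 and 57.4 CPM (-0.39, SE 0.08), the pocket protein gene RBL1 from 35.5 and 38.6 to 26.9 and 27.8 CPM (-0.44, SE 0.08) and MYBL2, which encodes B-MYB, from 43.5 and 42.6 to 23.9 and 24.4 CPM (-0.83, SE 0.09). FOXM1, which acts with MuvB, was at 43.1 and 47.4 CPM in the controls and 21.7 and 21.1 CPM at 4 h. Other members were not called: E2F4 was at 104 and 105 against 96.5 and 104 CPM, RB1 at 60.0 and 62.3 against 61.3 and 58.2 CPM and E2F7 at 57.1 and 60.7 against 55.3 and 57.4 CPM. E2F3, E2F5, TFDP1, TFDP2, RBL2, LIN37, LIN52 and LIN54 were likewise not called. E2F6 was called higher and LIN9 lower, calls that were lost in some fits without 1 library while the direction was kept. For E2F6 the log2 change was 0.39 without control replicate 1 (adjusted p = 0.0739) and 0.40 without 4 h replicate 1 (0.0663). For LIN9 it was -0.70 and -0.52 without control replicate 1 and 2 (adjusted p = 0.0522 and 0.144) and -0.43 without 4 h replicate 1 (0.17).

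In the list of origin licensing and firing, 19 of 26 genes were called lower and none higher, with a median log2 change of -0.56. Fewer were called lower without any 1 of the libraries compared, where the list median was -0.544 to -0.496. The helicase genes MCM7 and MCM6 fell from 176 and 172 to 111 and 117 CPM (-0.61, SE 0.08) and from 137 and 128 to 93.6 and 95.4 CPM (-0.49, SE 0.06). DNA synthesis and nucleotide supply had 25 lower and none higher of 32 (median -0.40), or 16 lower without 4 h replicate 1, among them the chromatin assembly subunit CHAF1A, at 45.7 and 40.8 against 23.6 and 26.5 CPM, the polymerase subunits POLA2 (-0.67, SE 0.09) and POLD1 (-0.66, SE 0.09), and UHRF1, which keeps DNA methylation after replication (-0.62, SE 0.09). Recombination and Fanconi genes were lower in 21 and higher in 1 of 31 cases (median -0.59), with none higher without any 1 of the libraries compared. Fewer of these genes were called lower in some alternative fits, and the list median ranged from -0.683 (without 4 h replicate 2) to -0.437 (without control replicate 2). RAD54B, a helper of strand exchange, fell from 9.89 and 9.43 to 3.48 and 4.74 CPM (-1.22, SE 0.15).

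E2F sites were searched on both strands as TTTCCCGC, TTTCGCGC, TTTGCCGC or TTTGGCGC. A match lay in the 250 bases before the start of 8 of the 22 origin genes with a window (36.4%). It was found for 7 of the 16 origin genes called lower and 1 of the 6 not called. Of the DNA synthesis genes, 9 of 29 held a match (31.0%). These shares stand against 3.4% of all genes in the table and 5.42% of tested genes with a window. In the DNA synthesis list the share was 27.3% of those called lower and 42.9% of those not called. MCM3, the origin gene with the smallest p, is printed with its single match, 174 bases before the start, at chr6:52284743-52284992 (GRCh38.p14, minus strand, the match in capitals).
MCM3: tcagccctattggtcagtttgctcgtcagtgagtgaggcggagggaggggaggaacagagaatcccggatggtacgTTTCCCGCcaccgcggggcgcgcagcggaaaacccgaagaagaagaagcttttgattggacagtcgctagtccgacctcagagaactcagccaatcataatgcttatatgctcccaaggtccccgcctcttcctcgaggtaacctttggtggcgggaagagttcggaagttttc

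All 39 tested spindle, kinesin and cytokinesis genes were called lower, with log2 changes from -1.57 to -0.28 and a median of -0.91. Both 4 h libraries lay below both controls for each, against 34.5% of all tested genes. KIF18A, a kinesin that aligns chromosomes, fell from 34.4 and 36.1 to 11.2 and 13.7 CPM (-1.49, SE 0.10, adjusted p = 2.7e-06), the condensin subunit NCAPD2 from 139 and 154 to 74.9 and 76.2 CPM (-0.95, SE 0.07) and the microtubule depolymerase KIF2C from 51.1 and 54.3 to 24.1 and 25.9 CPM (-1.07, SE 0.08). Kinetochore and centromere genes had 28 lower and 1 higher of 35 (none higher without any 1 of the libraries compared), with NDC80, which binds microtubules, at 24.6 and 24.5 against 11.5 and 11.1 CPM (-1.13, SE 0.09). Mitotic kinases and genes of the anaphase-promoting complex had 17 lower and 1 higher of 29. In each of these lists fewer genes were called lower in some alternative fits. List medians there were -0.97 to -0.844 (spindle), -0.657 to -0.588 (kinetochore) and -0.674 to -0.561 (mitotic kinases). AURKB, a kinase of the centromere, was at 16.2 and 16.2 against 5.24 and 6 CPM (-1.52, SE 0.12), the checkpoint kinase BUB1B at 38.5 and 41.5 against 14.8 and 16.6 CPM (-1.35, SE 0.10) and PLK1 at 64.2 and 71 against 30.4 and 31.7 CPM. The member called higher, CDC16, is a subunit of the complex itself and rose from 77.7 and 78.9 to 97.9 and 95.1 CPM (0.30, SE 0.06).

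CHR elements were searched as TTTGAA or TTCGAA on both strands, the latter of which reads the same on both. A match was found in the 250 bases before the start of 23 of the 36 spindle genes with a window (63.9%), 9 of 24 mitotic kinase and anaphase-promoting complex genes (37.5%) and 5 of 30 kinetochore genes (16.7%), against 17.2% of all genes in the table. The kinetochore share is thus near that of all genes. PLK1, a kinase known to be driven through a CHR, is printed with its single match, 29 bases before the start, at chr16:23678639-23678888 (GRCh38.p14, plus strand, the match in capitals).
PLK1: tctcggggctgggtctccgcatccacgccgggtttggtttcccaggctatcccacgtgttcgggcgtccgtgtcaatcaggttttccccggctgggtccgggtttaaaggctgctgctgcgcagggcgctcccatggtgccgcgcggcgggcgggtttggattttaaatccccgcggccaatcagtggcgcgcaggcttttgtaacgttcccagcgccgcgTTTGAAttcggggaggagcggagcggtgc

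Genes that hold back or release CDKs fell with the rest, with 9 of 12 lower and none higher. The phosphatase gene CDC25C, which releases CDK1, fell from 6.88 and 8.03 to 3.44 and 3 CPM (-1.22, SE 0.15), and CDKN1B, which encodes the inhibitor p27, from 31.5 and 32.2 to 19.3 and 21.3 CPM (-0.65, SE 0.08), so an inhibitor and an activator fell together. Targets of p53 had 5 higher and 5 lower of 27, close to the background, or 2 to 4 and 1 to 3 without 1 library, with PHLDA3, an AKT inhibitor, at 128 and 122 against 200 and 178 CPM.

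The comparison of 24 h with 4 h shares the 4 h libraries with that of 4 h with control, so its values are given only beside them. Of all tested genes 21.2% were called higher and 20.3% lower at 24 h than at 4 h. All 39 spindle genes were called higher at 24 h than at 4 h (median log2 change 1.88), as were 32 of 35 kinetochore genes (1.51), 22 of 26 origin genes (1.11) and 30 of 32 DNA synthesis genes (1.11). ANLN, an actin binder of the cleavage furrow, was at 47.0 and 48.1 CPM at 4 h and at 259 and 256 CPM at 24 h, above its control mean of 108 CPM. Of the rises, HSPA1A, CSRNP1, IL11 and SLC30A1 had 24 h levels close to those of the controls, whereas TXNIP, ID1, SMAD9 and IGFBP1 stayed up. SMAD9, which acts in BMP signalling, was at 12.3 and 12.2 CPM in the controls, 22.7 and 24.8 CPM at 4 h and 22.2 and 26.0 CPM at 24 h.

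**Figure D5:**
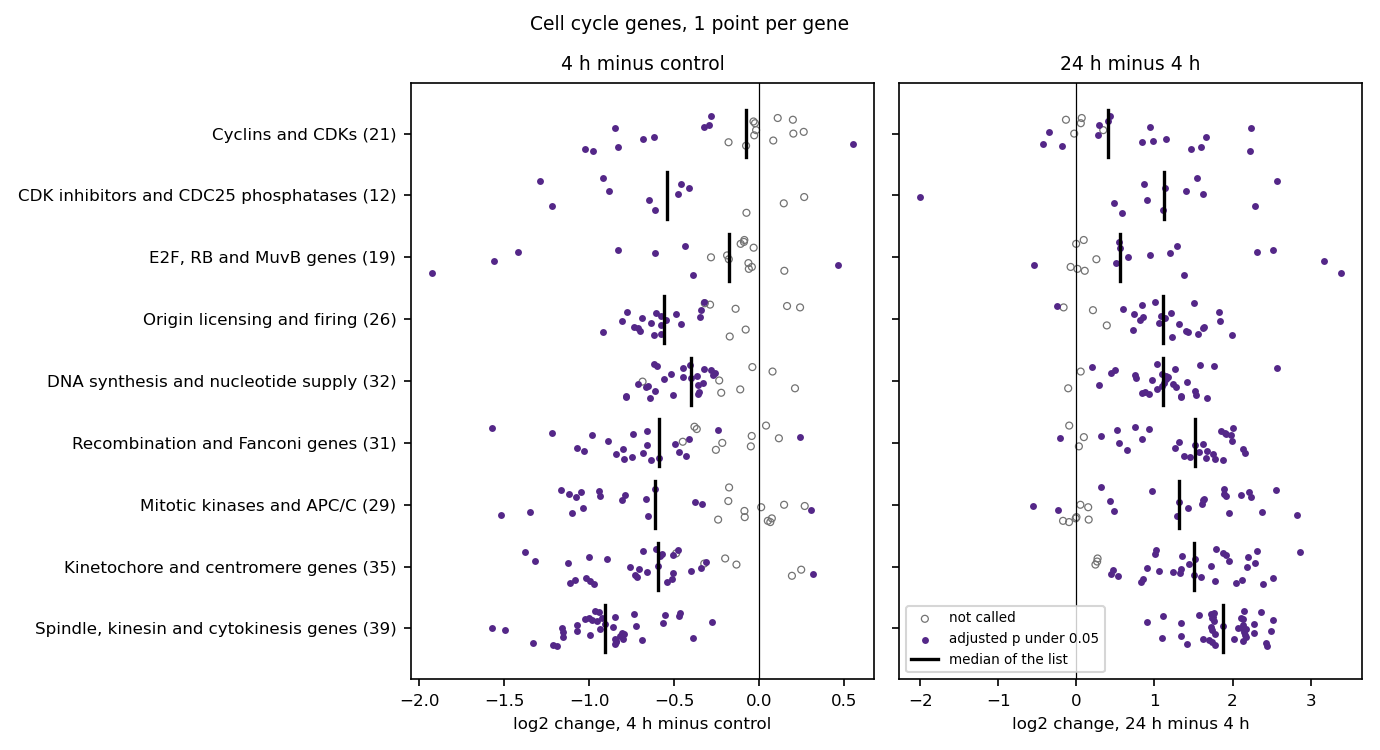
Log2 changes of cell cycle genes by list, 4 h minus control (left) and 24 h minus 4 h (right), 1 point per gene, filled where the adjusted p was under 0.05, with the number of tested genes in brackets. Black bars are list medians, which were -0.91 for spindle genes on the left and 1.88 on the right; both panels share the 4 h libraries.

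Genes outside the lists also stood among the 20 largest changes. Among the rises ranked 11 to 20, KIAA1199, which encodes a hyaluronan-binding protein, went from 19.0 and 19.2 to 126 and 108 CPM (2.61, SE 0.09), the homeobox gene DLX2 from 5.72 and 4.23 to 31.4 and 27.0 CPM (2.55, SE 0.21) and the neurokinin receptor TACR2 from 1.67 and 1.93 to 10.2 and 10.3 CPM (2.51, SE 0.17). Thrombospondin, THBS1, which activates latent TGF-beta, went from 25.6 and 28.6 to 152 and 142 CPM (2.44, SE 0.09). Thrombomodulin, THBD, the small GTPases RHOB and RASD2, and C5orf45 rose by 2.18, 2.13, 2.12 and 2.37 on the log2 scale. All 8 were lower again at 24 h than at 4 h, by 1.02 (RASD2) to 2.72 (TACR2) on the log2 scale.

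Among ranks 7 to 20 of the falls, besides genes already named, were CH25H, which makes 25-hydroxycholesterol, at 8.78 and 7.74 against 2.72 and 3.09 CPM (-1.50, SE 0.16), and HAS3, a hyaluronan synthase, at 30.6 and 30.1 against 9.36 and 12.2 CPM (-1.48, SE 0.16). Both remained low at 24 h, at 2.62 and 2.82 CPM (CH25H) and 7.56 and 7.08 CPM (HAS3). The netrin receptor DCC fell from 15.5 and 20.1 to 6.96 and 6.29 CPM (-1.43, SE 0.17), SLITRK5, a neuronal membrane protein, from 28.6 and 31.6 to 11 and 12.5 CPM (-1.36, SE 0.12) and the cytokine receptor IL20RB from 9.66 and 9.81 to 3.96 and 3.15 CPM (-1.47, SE 0.17). ACPP, which encodes prostatic acid phosphatase, fell from 13.7 and 14.7 to 5.28 and 5.56 CPM (-1.39, SE 0.12) and stood at 19.7 and 19.5 CPM at 24 h. OAS3, an interferon-induced sensor of RNA (-1.48, SE 0.16), and LOC152742 (-1.47, SE 0.14) completed this group.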

How the data were processed

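RNA-seq of U87MG cells was deposited as 1 table of raw counts per gene for each library, and the counts were used as deposited by the authors. Bowtie, hg19 and GRCh37 are named in the submitters' processing notes; for counting, the program, the annotation and whether strand was used were not given in the sources used here. All 8 libraries entered 1 fit (edgeR 4.0.16, limma 3.58.1, R 4.3.3): genes with low counts were removed, which left 14448 of 23368, libraries were TMM-scaled, and 4 h was compared with control by edgeR's quasi-likelihood test with 4 residual degrees of freedom and Benjamini-Hochberg adjustment over all tested genes. Of the gene names, 28 read as dates, as a spreadsheet writes them, and no list uses them. Totals of 24620833 to 33025426 counts gave a biological coefficient of variation of 7.15%. The members and lists were chosen with earlier results of these data known, and the lists are described by counts and medians alone. Genes were named by rule: the largest called changes above a mean log2 CPM of 2 whose groups did not overlap (20 each way over all genes, 12 each way among transcription factors), the members with the smallest p in each other list, every tested metallothionein, AP-1 and E2F, RB and MuvB gene, and SLC30A1, HMOX1, MT1X and FOXM1. Some genes that the rule names are not reported here. Alternatives were DESeq2 1.42.0, limma-voom, other scalings and filters, thinning to the smallest library, a replicate block and leaving out libraries. The steps were tested on simulated data. Promoter windows come from RefSeq (GRCh38.p14) and were matched by symbol or a unique synonym for 11052 tested genes (76.5%).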

Additional observations from a re-analysis of the deposited data

Results flagged for a closer look

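Several named genes had a log2 change from 4 h to 24 h, tested in the same fit and sharing the 4 h libraries, that was opposite in direction to that from control to 4 h. Genes that were lower at 4 h and higher at 24 h than at 4 h were led by E2F2 (3.39), E2F8 (3.17), MT3 (2.98), AURKB (2.83), MXD3 (2.55) and MYBL2 (2.52). Genes that were higher at 4 h and lower at 24 h than at 4 h were led by MT1JP (-4.7, from under 1 CPM, with a 4 h call that was lost without either control or 4 h replicate 2), ANGPTL4 (-3.4), MT1X (-3.31), SLC30A1 (-3.21), IL11 (-3.02) and MT1E (-2.96). Of 313 named genes, 131 were called higher and 117 lower at 24 h than at 4 h, and 65 were not called. Of all tested genes, 21.2% were called higher and 20.3% lower. Many named genes were chosen for their change at 4 h, and the shared 4 h libraries then favour a change the other way.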

How the results depend on the processing

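No gene called at 4 h was called in the opposite direction under any alternative. Against 2163 genes higher and 1964 lower, leaving out 1 of the libraries compared gave 1207 to 1286 higher and 986 to 1180 lower. A required log2 change of at least 1 left 353 and 236. With library totals as the only scaling, 1651 were higher and 2667 lower (38.2% against 61.8% of calls, in place of 52.4% and 47.6%), the median of all genes moved by -0.0627, and the medians of 8 of 44 lists, all within 0.059 of 0, changed sign. DESeq2, limma-voom, DESeq2 size factors, no filter, a stricter filter and thinning gave 1888 to 2250 higher and 1797 to 2120 lower. The libraries compared alone gave 2866 and 2610, and leaving out both 48 h libraries gave 3046 and 2742. Leaving out single 24 h or 48 h libraries, chosen after seeing the data, gave 1828 to 2992 higher and 1650 to 2791 lower. A replicate block gave 2411 and 2213. Across genes, the difference between a group's 2 libraries correlated at 0.00771 between control and 4 h. For other pairs of groups the correlation was -0.00488 to 0.135. Whether same-numbered libraries share a culture or a batch was not tested and cannot be told from such values. Of 313 named genes, 226 kept their side of the threshold in every alternative and 86 lost a call in at least 1. Calls depended on level: 7.2% and 5.29% of the lowest of 5 equal groups of genes were called higher and lower.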
